A study of Homo sapiens with 6 samples.

Results

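The Krüppel-like factors (KLFs) described here are KLF2, KLF3, KLF4, KLF6, KLF7, KLF9, KLF10, KLF11, KLF12 and KLF13, which were chosen by gene symbol and are 10 of the 28395 genes in the deposited table. Their RNA was measured by RNA-seq in HCC827, an established cell line from a human lung adenocarcinoma with an activating deletion in EGFR, so that every library comes from the same line and from cells grown without a tissue around them. There were 6 libraries, 3 from cells given the vehicle DMSO and 3 from cells given 1 μM erlotinib, an inhibitor of the EGFR kinase, with 24 h of treatment in both groups. Values are signal, the reads of a gene divided by a size factor of its library. The reads on genes numbered 20858083, 24641819 and 21172884 in the DMSO libraries, and 21944007 and 21678395 in the first and the last erlotinib library in the order of the table (Erlo4 and Erlo6), while the library between them (Erlo5) is described by its total signal of 20551934.

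KLFs are DNA-binding proteins with zinc fingers at the C-terminal end, and they bind CACCC and GC-rich boxes in promoters and enhancers. The family is usually divided by what the rest of the protein recruits. KLF2, KLF4, KLF5, KLF6 and KLF7 mostly activate transcription through histone acetyltransferases, KLF3, KLF8 and KLF12 repress it through the corepressor CtBP, and KLF9, KLF10, KLF11, KLF13, KLF14 and KLF16 repress it through SIN3. In epithelia, family members are known for their parts in differentiation, exit from the cell cycle and the response to growth factors.

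The label of the cells was checked against marker genes. The epithelial adhesion gene EPCAM had 9852 ± 235 signal in the DMSO group and 9485 ± 281 in the erlotinib group (SD, n = 3 for each mean), and the keratin gene KRT7 was the most abundant epithelial marker with 123686 ± 7643 and 79897 ± 2922 signal. Of the 9 epithelial markers 8 were tested, with 2 higher, 4 lower and 2 neither, beside 35.3% higher and 35.4% lower of all tested genes at an adjusted p under 0.05. The 4 that fell were the keratin genes KRT18 (log2 fold change −1.25, adjusted p = 1.6e-12, limma), KRT8 (−0.83, adjusted p = 4.3e-10), KRT7 (−0.63, adjusted p = 1.3e-07) and KRT19 (−0.39, adjusted p = 0.00033). NAPSA, which encodes an alveolar protease, rose from 986 ± 74.9 to 3733 ± 156 signal (1.92, adjusted p = 8.4e-15, limma), and NKX2-1, the transcription factor of the lung lineage, from 3002 ± 209 to 8644 ± 408 (1.53, adjusted p = 5.2e-14), whereas the surfactant gene SFTPB was nearly absent with means of 8.23 and 10.5. EGFR, the target of erlotinib, fell from 79645 ± 2441 to 45538 ± 3759 signal (log2 fold change −0.81, SE 0.07, adjusted p = 2.4e-09, limma). The dependence of the values on GC content differed between the groups. The slope of the log2 values per 10% of GC was −0.06, −0.24 and −0.05 in the DMSO libraries, with DMSO2 apart, and 0.12 in each erlotinib library, so that this trend and the treatment cannot be told apart.

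Of the 10 KLF genes, 8 reached the mean signal of 10 needed for a test. KLF2, KLF3, KLF7, KLF9 and KLF11 rose with erlotinib, KLF4 and KLF10 fell, and KLF6 did not pass the test. That is 5 higher and 2 lower of 8 tested, in a comparison where 35.3% of the 14215 tested genes were higher and 35.4% were lower at an adjusted p under 0.05. The DMSO and erlotinib libraries did not overlap for 7 of the 8, and for 73.6% of all tested genes. The shares are thus to be read against a background in which 70.7% of genes were called in either direction. The median log2 fold change of the 8 genes was 0.49 and that of all tested genes 0.02. In bulk RNA, fewer cells of a kind and less RNA per cell cannot be told apart.

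**Figure D1:**
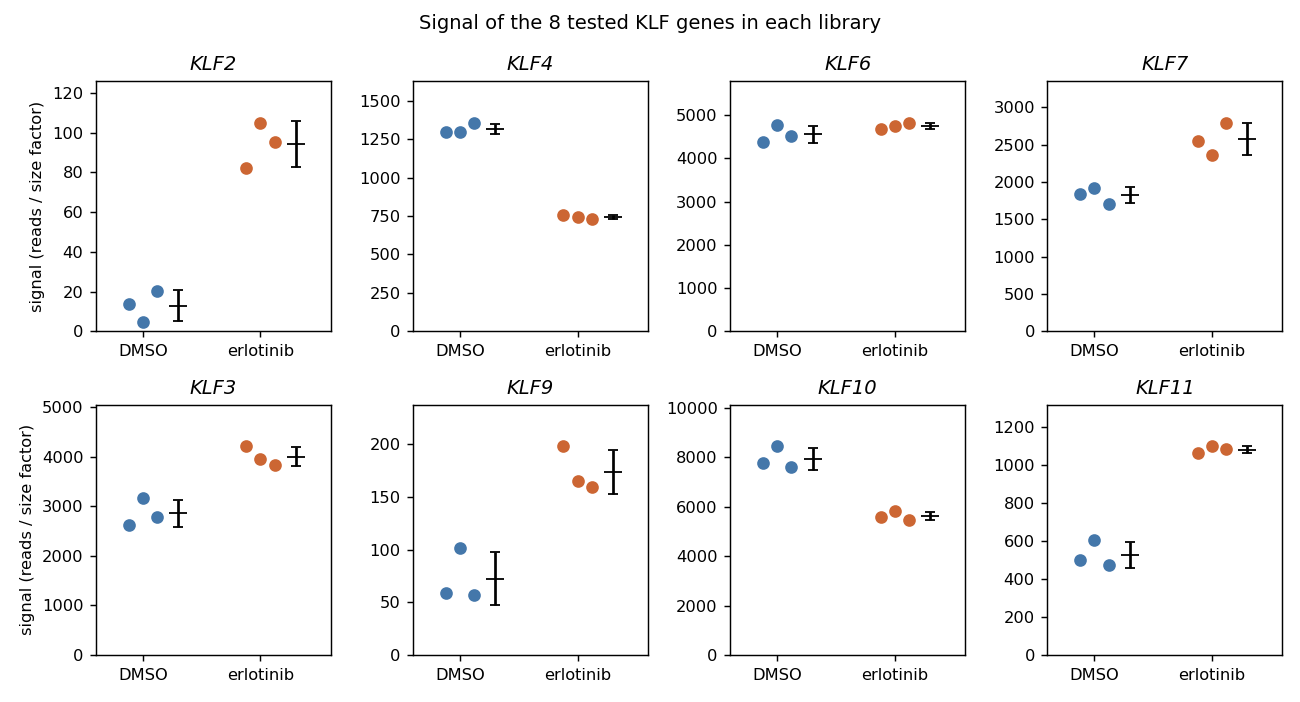
Signal of the 8 tested KLF genes (reads divided by the size factor of the library), with 1 panel per gene and 1 point per library, DMSO in blue and erlotinib in orange, and the mean ± SD of the 3 libraries beside each group. KLF2, KLF3, KLF7, KLF9 and KLF11 lie higher in every erlotinib library than in any DMSO library, KLF4 and KLF10 lie lower, and the KLF6 groups overlap.

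Among the activating members, KLF2 made the largest change. KLF2 is a factor best known from endothelium and resting T cells, where it is induced by the kinase ERK5 through MEF2 factors. Its signal was 13.6, 4.64 and 20.3 in the DMSO libraries and 82.1, 105 and 95.5 in the erlotinib libraries. Every erlotinib library thus lay above every DMSO library, but the DMSO level rested on few reads, 12, 5 and 19. The mean rose from 12.9 ± 7.87 to 94.2 ± 11.5 signal, a ratio of 7.32, and the log2 fold change was 2.97 (SE 0.41, 95% interval 2.12 to 3.83, adjusted p = 1.7e-06, limma). This change lay at percentile 97.9 of all tested genes. The size of the rise depended on the scale and on the DMSO2 library, as the log2 fold change was 2.24 when 10 rather than 1 was added to the signal, and 2.42 without DMSO2.

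The KLF2 promoter is shown because it holds the letters that MEF2 factors bind. The 250 bases before the RefSeq start of KLF2 lie at chr19:16324576-16324825 on the + strand of GRCh38.p14, next to the gene at chr19:16324826-16328685, and the MEF2 match is in capitals.
KLF2: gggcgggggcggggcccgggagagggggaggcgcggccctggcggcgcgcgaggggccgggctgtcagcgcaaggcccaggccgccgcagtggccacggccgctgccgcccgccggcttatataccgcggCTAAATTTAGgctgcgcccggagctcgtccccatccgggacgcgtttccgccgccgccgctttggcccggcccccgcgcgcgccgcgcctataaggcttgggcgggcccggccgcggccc
The match spans positions −120 to −111, counted so that −1 is the base before the start, within a window that is 80% G or C. A MEF2 match was found on either strand in 2.8% of the 35116 promoter windows of this length, and KLF12 was the only other of the 8 KLF genes with a window to hold one.

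KLF4 moved the other way. This factor supports differentiation of epithelia and is also used to reprogram cells to pluripotency. Its signal was 1299, 1296 and 1358 in DMSO and 754, 742 and 731 with erlotinib, so that the groups were far apart and each was tight. The mean fell from 1318 ± 35.3 to 742 ± 11.4 signal, 1.77-fold lower in erlotinib, with a log2 fold change of −0.83 (SE 0.08, adjusted p = 1.4e-08, limma). KLF4 lies at chr9:107484852-107489769.

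KLF6, a ubiquitous activator described as a tumor suppressor, was abundant and did not pass the test. Its signal was 4389, 4765 and 4515 in DMSO and 4691, 4758 and 4826 with erlotinib. The groups overlapped, since the highest DMSO library lay above 2 of the 3 erlotinib libraries. The log2 fold change was 0.06 with a 95% interval of −0.07 to 0.20 (adjusted p = 0.38, limma), and the gene lies at chr10:3775996-3785209. Only scaling to the total count gave a call, at 0.24, a setting that also moved the median of all tested genes to 0.19.

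The promoters of KLF4 and KLF6 are shown side by side because both hold the E-box CACGTG, in capitals. Both sequences are the 250 bases before the RefSeq start on the − strand of GRCh38.p14, at chr9:107489770-107490019 for KLF4 and at chr10:3785210-3785459 for KLF6.
KLF4: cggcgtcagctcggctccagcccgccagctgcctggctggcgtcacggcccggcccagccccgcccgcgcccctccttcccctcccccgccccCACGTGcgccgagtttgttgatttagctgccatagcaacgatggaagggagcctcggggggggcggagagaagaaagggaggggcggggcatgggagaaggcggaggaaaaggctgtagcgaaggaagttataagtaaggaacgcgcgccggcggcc
KLF6: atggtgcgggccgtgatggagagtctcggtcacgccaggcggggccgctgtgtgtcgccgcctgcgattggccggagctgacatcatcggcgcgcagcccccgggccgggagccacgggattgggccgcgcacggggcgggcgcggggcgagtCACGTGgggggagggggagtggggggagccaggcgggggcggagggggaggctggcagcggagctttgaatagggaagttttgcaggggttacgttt
The E-box spans positions −157 to −152 in KLF4 and −97 to −92 in KLF6. It was found in 6.34% of all promoter windows, and among the KLF genes also in windows of KLF7 and KLF11, which rose with erlotinib. Whether the E-box bears on any of these changes was not tested.

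KLF7, an activator first studied in neurons and adipose tissue, had 1842, 1917 and 1709 signal in DMSO and 2553, 2362 and 2792 signal with erlotinib. All erlotinib libraries were higher. The mean rose from 1823 ± 105 to 2569 ± 216 signal (log2 fold change 0.49, SE 0.08, adjusted p = 1e-05, limma). KLF7 lies at chr2:207074137-207173851, and the microRNA genes MIR2355, listed at 0, and MIR7845, with at most 1.13 signal, lie within it.

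Of the members that bind CtBP, KLF3 rose and KLF12 was nearly without reads. KLF3 represses genes in red cells, B cells and fat. Its signal was 2626, 3158 and 2790.3 in DMSO and 4205, 3947 and 3828 with erlotinib, and the groups were separate even though DMSO2 was the highest of its group. The mean rose from 2858 ± 273 to 3993 ± 193 signal (log2 fold change 0.49, SE 0.07, adjusted p = 7.4e-06, limma). KLF3 lies at chr4:38664199-38701517, and the lncRNA gene KLF3-AS1 at chr4:38599093-38664893 overlaps its start. KLF3-AS1 had 4.18 ± 0.421 signal in DMSO and 22.3 ± 6.52 with erlotinib, a small amount beside KLF3, and reached the mean of 10 only through the erlotinib libraries, so its test is not given. Whether reads were counted by strand is not given in the sources used here, so reads from the overlap cannot be told apart.

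KLF12, a repressor of the transcription factor gene TFAP2A, was listed at 0 in every library except DMSO3, where 2 reads gave 2.14 signal. It was not tested, and a count of 0 allows up to 3 reads per library. The gene lies at chr13:73686089-74306045.

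Of the members that bind SIN3, KLF9 and KLF11 rose and KLF10, the most abundant of the 10, fell. KLF9 is a target of glucocorticoid and thyroid hormone receptors. Its signal was 59, 102 and 56.7 in DMSO and 198, 165 and 159 with erlotinib. DMSO2 stood above the other DMSO libraries and still below all erlotinib libraries. The mean rose from 72.6 ± 25.6 to 174 ± 21.1 signal, a ratio of 2.4, and the log2 fold change was 1.30 (SE 0.22, 95% interval 0.83 to 1.76, adjusted p = 2.8e-05, limma). KLF9 lies at chr9:70384604-70414657, and the overlapping lncRNA gene KLF9-DT was not analysed here.

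KLF10 and KLF11 are near relatives known as early genes of TGF-β signalling, and they moved in opposite directions. KLF10 had 7771, 8445 and 7616 signal in DMSO and 5596, 5822 and 5464 signal with erlotinib. KLF11, at chr2:10043550-10054836, had 497, 605 and 475 signal in DMSO and 1062, 1097 and 1083 signal with erlotinib. In both genes DMSO2 was the highest DMSO library, and in both the groups were far apart. KLF10 fell from 7944 ± 440.4 to 5627 ± 181 signal (log2 fold change −0.50, SE 0.06, adjusted p = 7.3e-07, limma). KLF11 rose from 526 ± 69.3 to 1081 ± 17.5 signal (log2 fold change 1.05, SE 0.10, adjusted p = 8.2e-09, limma).

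A promoter of KLF11 is shown for its cAMP response element, TGACGTCA, the letters that CREB and ATF factors bind. The sequence is the 250 bases before a RefSeq start of KLF11, at chr2:10043971-10044220 on the + strand of GRCh38.p14, with the element in capitals. This stretch lies within the gene, and the other KLF11 window, which begins upstream at chr2:10043579, does not hold the element.
KLF11: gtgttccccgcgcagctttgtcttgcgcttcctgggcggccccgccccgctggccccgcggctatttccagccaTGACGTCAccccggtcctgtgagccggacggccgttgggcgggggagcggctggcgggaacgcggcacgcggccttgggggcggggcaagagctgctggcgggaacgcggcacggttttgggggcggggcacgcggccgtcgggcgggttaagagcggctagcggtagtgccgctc
The element spans positions −176 to −169. It was found in 1.65% of all promoter windows and in no other of the 8 KLF genes with a window. Of the other motifs searched on both strands, the GC box GGGCGG was in 8 of the 15 windows of these genes and in 42.6% of all windows, and CACCC was in 6 of the 15 and in 54.7% of all windows. The forkhead motif TGTTTAC was in none of the 8 and in 2.98% of all windows. AP-1 letters (TGANTCA, 6.57% of all windows) were in KLF12 only, while KLF7 alone held the TEAD motif GGAATG (11.9%) and a CArG box (1.16%). KLF3 and KLF10 had no window in the table used, and a match of letters is a description of the sequence.

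KLF13, an activator of CCL5 in T cells, was listed at 0 in all 6 libraries. Its transcript, from chr15:31326835-31435665, also aligned over 100% of its length at 99.9% identity to an alternate contig of the genome. Of 698 protein-coding genes with such a copy, 612 (87.7%) were listed at 0 in every library, against 2774 of 17933 (15.5%) without. Only uniquely mapped reads were counted. Whether KLF13 lost reads to its copy was not tested, and its 0 is not read as a level. None of the other 9 KLF genes had such a copy. The lncRNA gene LOC105370939 within KLF13 was also listed at 0.

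**Figure D2:**
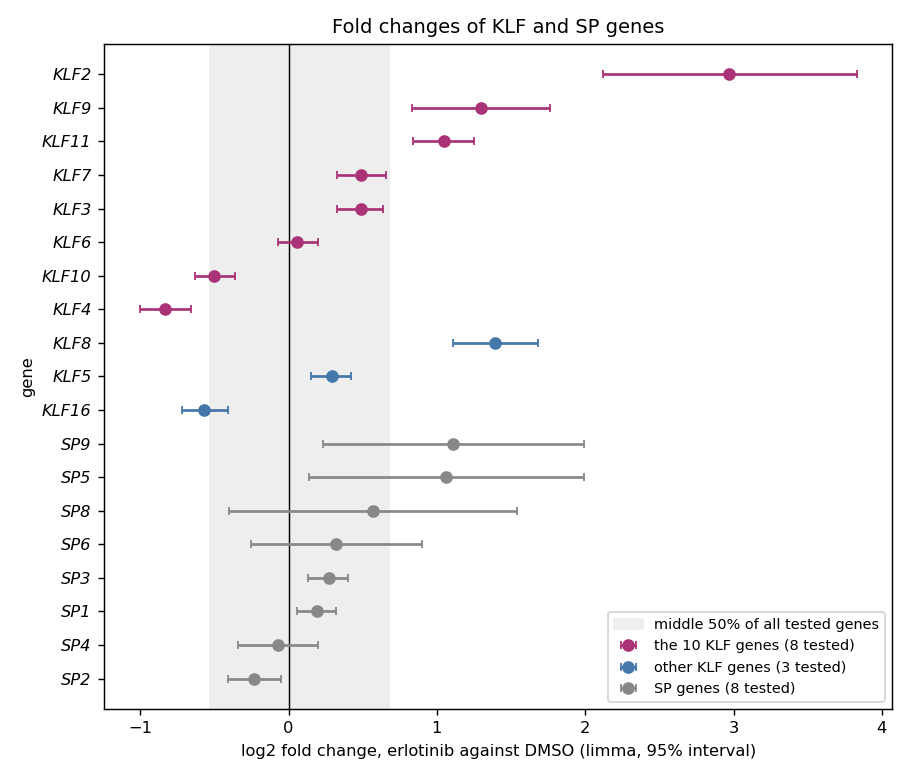
Log2 fold changes, erlotinib against DMSO, from limma on log2(signal + 1), of the 8 tested KLF genes described here, 3 other KLF genes and 8 SP genes, with points for the estimates, bars for the 95% intervals and a grey band from the lower to the upper quartile of all tested genes (−0.53 to 0.68). KLF2 stands highest at 2.97, KLF4 lies lowest at −0.83, and the interval of KLF6 spans 0.

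The rest of the family was measured for comparison. Of 8 other KLF genes, 3 were tested: KLF5, an activator of proliferating epithelium, rose from 3961 ± 99.9 to 4829.6 ± 136 signal (log2 fold change 0.29, SE 0.06, adjusted p = 0.00045, limma), the CtBP-binding KLF8 rose from 154 ± 12.1 to 405 ± 30.1 signal (1.39, SE 0.14, adjusted p = 1.1e-08), and the SIN3-binding KLF16 fell from 3052 ± 209 to 2060.0 ± 92.9 signal (−0.57, SE 0.07, adjusted p = 7.1e-07). KLF14 had at most 6.42 signal and KLF15 was seen in DMSO3 alone, at 4.28. KLF1, KLF17 and KLF18 were listed at 0. Both CtBP-binding genes that could be tested were thus higher with erlotinib, while the activating and the SIN3-binding genes each held both directions. Of the 9 related SP genes, 8 were tested, with 4 higher, 1 lower and a median of 0.30, beside 35.3% higher, 35.4% lower and a median of 0.02 over all tested genes. SP1 (0.19, adjusted p = 0.0092, limma) and SP3 (0.27, adjusted p = 0.00091), which bind the same GC boxes, rose slightly. The calls of SP5 (1.06), SP9 (1.11) and SP2 (−0.23) held in 11 of 17, 8 of 16 and 8 of 17 alternatives. SP4 (−0.07), SP6 (0.32) and SP8 (0.57) did not pass the test, and SP7 was listed at 0.

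Levels were compared between genes after division by the length of the longest transcript, as signal per kb. In DMSO the order was KLF10 with 2171 signal per kb, KLF5 with 1183, KLF16 with 1052, KLF6 with 993, KLF3 with 511, KLF4 with 449, KLF7 with 218 and KLF11 with 130. KLF8, KLF9 and KLF2 followed far below with 16.9, 14.0 and 4.56 signal per kb. The libraries of KLF16 and KLF6 overlapped, as did those of KLF8 and KLF9, so their order is not fixed. With erlotinib KLF10 had 1538 signal per kb and KLF5 1442, followed by KLF6 with 1037, KLF3 with 714, KLF16 with 710, KLF7 with 307, KLF11 with 268, KLF4 with 253, KLF8 with 44.5, KLF9 with 33.5 and KLF2 with 33.4. KLF4 thus moved from above KLF7 and KLF11 to below them, and KLF2 reached KLF9. The libraries of KLF3 and KLF16, and of KLF9 and KLF2, overlapped in erlotinib. Divided by the union of exons instead, KLF8 had 12.1 signal per kb in DMSO and 31.8 with erlotinib, with libraries that overlapped those of KLF9 in both groups and those of KLF2 with erlotinib, and the DMSO libraries of KLF5 and KLF16 overlapped too, so that the order of these genes is not fixed. The share of KLF10 (chr8:102648784-102655725) in the summed level of all KLF genes was 32.2% in DMSO and 24.1% with erlotinib, where KLF13, whose level is not known, entered as 0. That sum was 6743 ± 142 signal per kb in DMSO and 6381 ± 97.2 with erlotinib. It was not computed with libraries scaled to the total count, which raises the erlotinib values, so the direction of this difference is not fixed. Summed over the activating genes, the level was 2847 ± 22.3 signal per kb in DMSO and 3072 ± 9.91 with erlotinib. Over the genes that bind CtBP it was 528 ± 47.6 signal per kb in DMSO and 758 ± 32.1 with erlotinib, and over those that bind SIN3 it was 3368 ± 84.6 and 2550.1 ± 82.7, again with KLF13 as 0 (SD over 3 libraries).

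**Figure D3:**
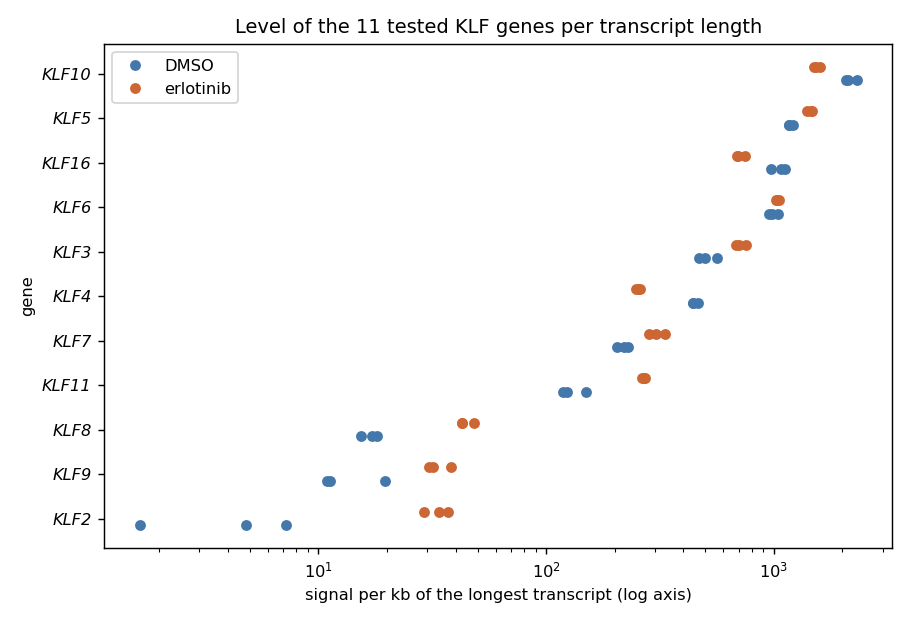
Signal per kb of the longest transcript (log axis) of the 11 tested KLF genes, ordered by their DMSO level, with each point a library. KLF10 leads in both groups, at means of 2171 signal per kb in DMSO and 1538 with erlotinib, and KLF2 is lowest in DMSO at 4.56.

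Genes that act with or on KLF proteins were counted from lists of known genes and read against the same background of 35.3% higher and 35.4% lower. The most abundant gene of a list is the one with the highest mean signal over all 6 libraries, not per length. Of 10 cofactors, 3 were higher, 3 lower and 4 neither, and their log2 fold changes had a median of 0.06. The corepressor gene CTBP2 fell (−0.59, adjusted p = 1.1e-06, limma) and so did the histone deacetylase genes HDAC1 (−0.41, adjusted p = 6e-05) and HDAC2 (−0.33, adjusted p = 0.00032). The corepressor SIN3B (0.71, adjusted p = 8.1e-08), the LIM-domain cofactor FHL3 (0.87, adjusted p = 7.1e-06) and the acetyltransferase CREBBP (0.39, adjusted p = 4.5e-05) rose. CTBP1, the most abundant of them, had 4775 ± 309 and 4609.9 ± 102 signal and did not pass the test. Of 6 ubiquitin ligase genes that act on KLF proteins, 3 were higher and 2 lower with a median of 0.21. FBXO32 (0.40), SIAH1 (0.27) and SMURF1 (0.22), the most abundant, rose, and FBXW7 (−0.31) and VHL (−0.19) fell, with adjusted p from 2.4e-05 to 0.027 (limma). The calls of SIAH1, VHL, FBXW7, SMURF1 and HDAC2 held in 11, 13, 14, 16 and 16 of 17 alternatives.

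The route from ERK5 to MEF2 had 7 genes, all tested, of which 3 were higher, 1 lower and 3 neither, with a median of 0.11. Among all tested genes 35.3% were higher and 35.4% lower, with a median of 0.02. MEF2C, a MEF2 factor of muscle, neurons and endothelium, had 138, 102 and 152 signal in DMSO and 1358, 1351 and 1273 signal with erlotinib. The erlotinib libraries were tight and far above DMSO. The log2 fold change of MEF2C was 3.35 (SE 0.13, adjusted p = 6.6e-15, limma), and MEF2D (0.88, adjusted p = 8.5e-09) and the ERK5 kinase gene MAP2K5 (1.01, adjusted p = 9e-06) rose too. MAP3K3 fell (−0.33, adjusted p = 0.0052, called in 16 of 17 alternatives), while MAPK7, which encodes ERK5 itself (0.01), MEF2A (0.11) and MAP3K2 (−0.01), the most abundant, did not pass the test. Of 9 other known inducers, 3 were higher, 2 lower and 4 neither, with a median of 0.15, beside the same shares of all tested genes. The forkhead genes FOXO4 (234 ± 36 to 1610.2 ± 25 signal, log2 fold change 2.79, adjusted p = 7.6e-15, limma) and FOXO1 (0.98, adjusted p = 5e-06) rose, as did the TGF-β receptor gene TGFBR2 (0.30, adjusted p = 0.0002). The glucocorticoid receptor gene NR3C1 (−0.57, adjusted p = 1.5e-07) and SMAD3 (−0.31, adjusted p = 0.00021, called in 16 of 17 alternatives) fell. SMAD3 had the highest mean signal of the list over all libraries, and with erlotinib TGFBR2 had 6344 ± 110.0 and SMAD3 6252 ± 328 signal.

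Of 19 genes known as KLF targets in other cells, 13 were tested, of which 8 were higher, 3 lower and 2 neither, with a median of 0.86. Of all tested genes 35.3% were higher and 35.4% lower, and their median was 0.02. NOS3, the endothelial nitric oxide synthase and a target of KLF2, had 14.7, 8.36 and 25.7 signal in DMSO and 117, 92.1 and 138 signal with erlotinib. No libraries overlapped, and the log2 fold change was 2.87 (SE 0.35, adjusted p = 3.5e-07, limma). TXNIP, which had the highest mean signal over all libraries, rose from 3545 ± 370.0 to 10678 ± 461 signal (1.59, adjusted p = 7e-14, limma). The list held both directions. THBD, thrombomodulin and also a target of KLF2, fell (−1.44, adjusted p = 6.8e-08, limma), as did ENG, endoglin and a target of KLF6 (−1.13, adjusted p = 2.6e-09), and ODC1, the polyamine synthesis gene that KLF4 represses (−1.84, adjusted p = 2e-15). ODC1 had the highest signal of the list in DMSO, 7911 ± 369.9. CDKN1A, the cell cycle inhibitor activated by KLF4 and KLF6, had 484 ± 58.1 and 482 ± 59.4 signal, and S1PR1, a further target of KLF2, had 21 ± 9.26 and 42.2 ± 23 signal, and neither passed the test. S1PR1 passed it in 6 of 17 alternatives. CCL5, like KLF13 listed at 0, also has a copy on an alternate contig.

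**Figure D4:**
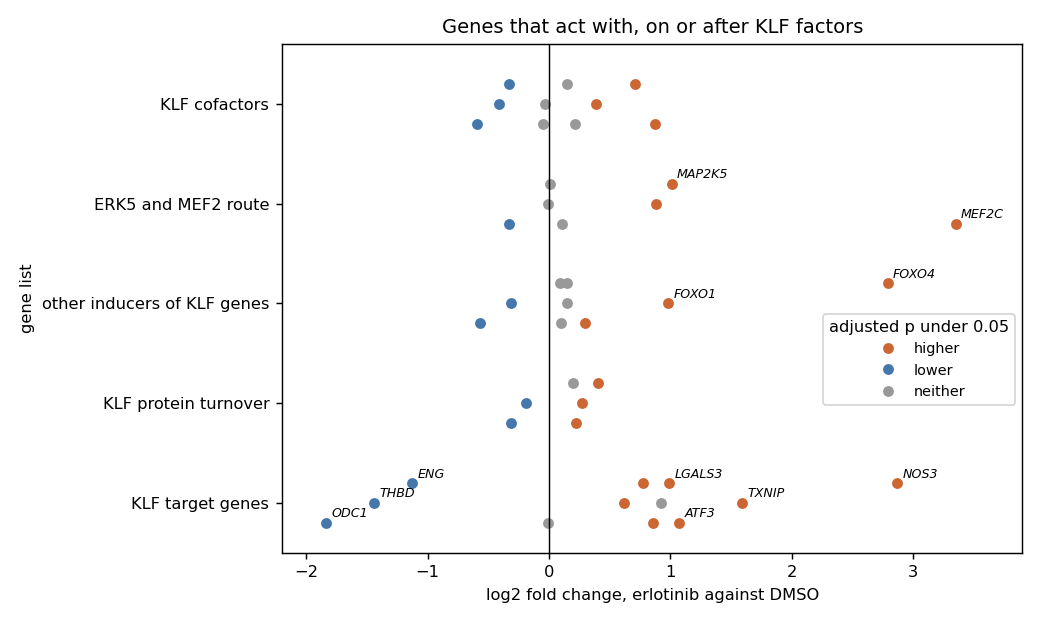
Log2 fold changes, erlotinib against DMSO, of the genes reported from 5 lists of genes that act with, on or after KLF factors, with points colored by whether the adjusted p was under 0.05 and in which direction. MEF2C at 3.35, NOS3 at 2.87 and FOXO4 at 2.79 stand highest, ODC1 at −1.84 lowest, and each list holds both directions.

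Since KLF2 and NOS3 are abundant in endothelium, the markers of that cell type were measured beside them. Of 6 endothelial markers 2 reached the mean of 10. VWF, the most abundant by its mean over all libraries, had 3.94 ± 3.31 signal in DMSO and 27.4 ± 6.93 with erlotinib, and it reached that mean only through the erlotinib libraries, so its test is not given. PECAM1, the more abundant in DMSO, had 15.7 ± 3.29 and 10.4 ± 2.2 signal and did not pass the test. CDH5 had 3.78 ± 6.55 signal in DMSO, all of it from DMSO1, and 10.1 ± 2.13 with erlotinib. TEK had means of 1.43 and 0.936 signal. CLDN5 was listed at 0 in all libraries and KDR at 0 in the DMSO libraries and at most 3.96 with erlotinib. The 6 markers summed to 34, 15.8 and 24.6 signal in DMSO and 58.1, 46.5 and 48.7 with erlotinib, and to 30.6, 14.9 and 17.1 against 23.1, 20.8 and 27.1 without VWF. In fibroblast and leukocyte lists, COL1A1 rose from 77.7 ± 15.3 to 216 ± 27.9 signal (1.47, adjusted p = 6.8e-07, limma) and the lysosomal gene CD68 from 2898 ± 206 to 3394 ± 167 (0.23, adjusted p = 0.0076, called in 15 of 17 alternatives). COL1A1 was the most abundant of the 6 fibroblast markers, and the others summed to 5.67, 5.57 and 13.9 signal in DMSO and 14.8, 9.9 and 25.3 with erlotinib. The means in DMSO and with erlotinib were 0.997 and 0 for COL1A2, 1.47 and 0.308 for COL3A1, 0 and 1.55 for DCN, 4.14 and 12.6 for LUM, and 1.78 and 2.18 for PDGFRB. CD68 was the most abundant of the 6 leukocyte markers, and the others summed to 17, 6.5 and 36.4 signal in DMSO and 34.1, 11.9 and 23.4 with erlotinib. PTPRC had means of 1.78 and 4.75, and CD3E of 1.81 and 1.54 signal. The part of other cell types in the KLF2 and NOS3 values was not tested beyond these levels.

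Corrected for GC content and transcript length, KLF2, whose transcript is 61.2% G or C, had a log2 fold change of 2.71 and KLF4 of −0.92, both still past the threshold, and KLF6 of 0.09 (adjusted p = 0.082, limma). Replicate libraries differed by more than their counting error (chi-square over its degrees of freedom, 4.84 to 22.9), and no label says that they came from separate cultures, so p-values measure the spread between these libraries, which may be technical.

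**Figure D5:**
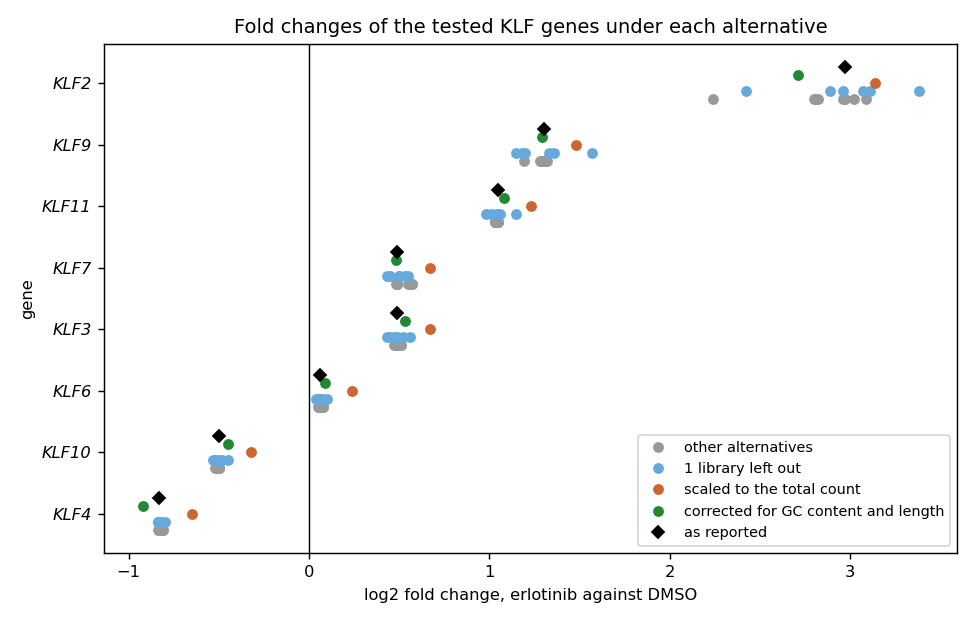
Log2 fold changes, erlotinib against DMSO, of the 8 tested KLF genes as reported (black diamonds) and under each alternative (colored points). No gene changes sign, KLF2 has the widest range with 2.24 to 3.38, and KLF6 lies between 0.04 and 0.24.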

How the data were processed

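RNA-seq of HCC827 cells gave 3 DMSO and 3 erlotinib libraries. By the submitters' processing notes, the authors used Bowtie2 2.3.4, an aligner that does not split reads at introns, featureCounts 1.6.3 on uniquely mapped reads, and DESeq2 1.18.1, with GRCh38. The deposited table holds signal, which is reads over a size factor that is constant within a library: in 5 libraries 100% of them were whole multiples of a step, within 0.1 read. The sources used here do not state this division or the strand counted.

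The 14215 genes of 28395 whose signal averaged 10 or more were tested with limma 3.58.1 (variance trend) on log2(signal + 1), two-sided, with Benjamini-Hochberg adjustment over all of them and a threshold of 0.05. Fold changes are on that scale, where the added 1 draws those of low genes towards 0. Intervals are 95%, from limma, and the floor for a count of 0 is 3 reads, which covers counting error only. The KLF genes and all lists were chosen with earlier results of these data known. Named are all KLF and SP genes, EGFR, genes overlapping a KLF gene, and of each list the 3 largest rises, the 3 largest falls and the most abundant gene. The targets and markers named beyond these were chosen after their values were seen. A gene of the target list is not reported here, and it is left out of the figure but not of the counts and the median of the list. Further lncRNA genes and pseudogenes that overlap KLF9, KLF12, KLF13 or other KLF genes were not analysed here.

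On simulated data for this comparison (14107 genes), limma recovered 96 of 108 genes changed by 1 log2 unit and 85 of 88 changed by 2, and 4.23% of 189 calls were false. Few genes were changed in the simulation, whereas 70.7% of tested genes were called in the data. Changes smaller than 1 log2 unit were not simulated, so these rates do not cover them. Gene positions and promoter windows came from RefSeq (GRCh38.p14), and 8 of the 10 KLF genes matched a window, with 15 windows in all. Copies were sought with minimap2 2.31-r1302 by aligning GENCODE 44 transcripts to 261 alternate contigs (at least 90% aligned, at least 97% identity). Alternatives were edgeR 4.0.16, DESeq2 1.42.0 and limma-voom, pseudocounts of 0.1 and 10, total-count and TMM scaling, no filter, a minimum of 10 in every library, a threshold of 0.01, a correction for GC content and length (known for 94.1% of tested genes), and each library left out. R was 4.3.3, Python 3.11.15 and matplotlib 3.10.9.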

Additional observations from a re-analysis of the deposited data

How the results depend on the processing

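Of the 8 tested KLF genes, 7 kept their direction and their side of the threshold in every alternative that could test them. KLF6 passed the threshold only when libraries were scaled to the total count (0.24, adjusted p = 0.0024, limma), a setting that moved the median of all tested genes from 0.02 to 0.19. The higher KLF genes numbered 4 to 6 and the lower 2 in every alternative, with 4 where a minimum of 10 in every library removed KLF2. Over all genes, 4323 to 6156 were higher and 3955 to 5236 lower. Leaving out each library in turn gave 4559 to 5127 higher and 4721 to 5080 lower genes, 5 higher and 2 lower KLF genes, and log2 fold changes of 2.42 to 3.38 for KLF2, 1.15 to 1.57 for KLF9, 0.98 to 1.15 for KLF11, 0.43 to 0.56 for KLF3, 0.43 to 0.55 for KLF7, 0.04 to 0.10 for KLF6, −0.84 to −0.80 for KLF4 and −0.53 to −0.45 for KLF10. The union of exons in place of the longest transcript moved the DMSO level of KLF3 to 422, KLF4 to 359.8, KLF6 to 742, KLF7 to 189.6 and KLF8 to 12.1 signal per kb, and with erlotinib it placed KLF3 (589.8) below KLF16 (695) and brought KLF8 (31.8) to overlap with KLF9 and KLF2. The edgeR, DESeq2 and limma-voom tests used 5 libraries, without Erlo5, a choice made after seeing the data. Erlo5 was left out because the step of its values, 0.99, lies close to 1. No paired analysis was possible because the columns of the erlotinib libraries carry no number shared with the DMSO columns. KLF2 in DMSO rested on 5 to 19 reads per library, and KLF12 and KLF13 could not be tested.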
